A study of Mus musculus with 29 samples.

Results

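Of the genes in the count table, 1236 carried a provisional mouse symbol, the letters Gm followed by a number, and 99 of these reached a mean of at least 10 CPM over 17 cloned 2-cell embryos. These 99 genes are described here. CPM, the read count scaled to a common library total, was taken over 24448 gene rows with the spike-in rows left out. The membership rule used the mean level in embryos, so the members' presence there is not a finding. Just inside the limit were Gm2016 at 10.1 CPM, Gm128 at 10.2 CPM and Gm815 at 10.3 CPM. Just outside were Gm4349 at 9.96 CPM, Gm10069 at 9.76 CPM and Gm11423 at 9.71 CPM. Of the 99 members, 88 had a count in each of the 17 embryos.

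RNA was sequenced from 9 control embryos, from 8 embryos exposed to hydroxyurea (HU) and from 12 single cumulus cells, the somatic cells around the oocyte whose nuclei served as donors. All 17 embryos were of the BDF1 strain and were built the same way: an oocyte without its own chromosomes received a cumulus cell nucleus, stood for 1 h in KSOM culture medium and was activated for 6 h with 10 mM strontium, 5 ug/ml CB and 2 mM EGTA. The HU group was then kept in 10 uM HU, which was washed out after 24 h, and the controls in the same medium without it. Embryos were collected at the 2-cell stage, 28 h after activation. Neither females nor collection days are named, so every p-value covers the variation among these 17 embryos alone. CPM is a share of a library, so less of one transcript and more of the others cannot be told apart. The comparison asks whether slowing DNA synthesis changes the transcripts of a cloned embryo.

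Mouse databases assign a Gm symbol to a predicted gene, or to a cloned transcript with no described function, and replace it once a family or function is recognised. A freshly activated oocyte runs on RNA stored during oocyte growth. At the 2-cell stage the embryo's own genome is switched on while much of the stored RNA is degraded, so genes transcribed at that stage rise while stored transcripts fall. Many genes transcribed in this wave are mouse-specific gene copies, such as the Tdpoz and Pramel families, and several start within or beside old retroviral repeats.

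Libraries held 1801261 to 3472116 gene counts in controls, 2442541 to 3757492 in HU embryos and 317195 to 4051494 in cumulus cells. The ribosomal precursor row Rn45s took 16.2% to 32.5% of counts in controls, 15.2% to 28.98% in HU embryos and 49.3% to 86.6% in cells, which lowers every other gene's CPM in the cells. The embryos matched their label in sum: 30 cumulus and granulosa genes stood at 176 to 369 CPM in embryos against 7329 CPM in cells. Ptx3, Pgr and Ereg were at 0 counts in every embryo but were low in the cells too (5.36, 0.291 and 4.95 CPM). Single genes of the list went the other way: Amhr2 averaged 28.3 CPM in controls and 42.4 in HU embryos against 14.7 in the cells. Kitl averaged 18.2 and 10.3 CPM against 1.29, and Cyp19a1 2.87 and 3.60 CPM against 0. Summed immune and blood genes ranged from 4.95 to 36.8 CPM and summed endothelial and stromal genes from 30.9 to 88.3 CPM in embryos, with the 4 globin genes, Col1a2, Col3a1, Dcn and Lum at 0.

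All 99 members were found in the GRCm38 mouse annotation, 85 by symbol and 14 through an older-name entry of RefSeq. By GENCODE M21, or by RefSeq for members without an M21 entry, 43 were long noncoding RNA genes, 35 protein-coding genes and 21 pseudogenes, spread over 19 chromosomes. RefSeq gives 24 members another name today. Among them are Pramel24 to Pramel27 (Gm13078, Gm13023, Gm13084 and Gm13103), the zinc finger genes Zfp980, Zfp981, Zfp982 and Zfp984 (Gm13242, Gm13247, Gm13152 and Gm13157), Tdpoz8 (Gm4858), Tdpoz9 (Gm9125), Spopfm2 (Gm10696) and the small nucleolar RNA host gene Snhg15 (Gm11974). Gm29766 is now listed as Fbrsl1, which has a row of its own, so the reads of these rows cannot be told apart. A total of 28 members lay in 9 chains of neighbours no more than 1 Mb apart. Of the 85 members with a GENCODE M21 transcript, 27 shared 25% or more of their 50-base words with other genes and 24 shared none. Smart-seq2 does not mark strand, and 44 members overlapped another annotated gene between start and end, introns included. Reads from a stretch that both genes hold cannot be told apart. The shared part varied: Gm17296, which overlaps Coa6, shared 0.884% of its 50-base words with other genes. Gm5779, which overlaps Gucd1, shared 68.2%, and Gm15941, which overlaps Gm8668, shared 77.4%.

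The most abundant member was Gm1965, a long noncoding RNA gene with 3 exons at chr6:89140994-89147388 (plus strand, GRCm38). In controls its lowest, median and highest levels were 4023, 4950 and 6664 CPM, and in HU embryos 2963, 4183 and 6483 CPM. The lowest embryos were control 3 and HU embryo 5, and the groups overlapped. It supplied 41.1% ± 4.3 of all member counts in controls (SD, n = 9) and 39.4% ± 3.75 in HU embryos (SD, n = 8). It was also first per length, at a mean of 1955 FPKM (fragments scaled by transcript length and library total) over 17 embryos. The second per length was Gm839 at 696 FPKM, another 3-exon noncoding gene at chr6:89211165-89216237 on the opposite strand, 63.8 kb away. Across the 17 embryos the levels of Gm1965 and Gm839 followed each other with a Spearman rho of 0.71. No 50-base word of Gm1965 occurred in another gene, and for Gm839 1.23% did.

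Next per length came coding genes of the PRAME-like family, whose proteins are leucine-rich repeat proteins typical of germ cells. Gm13023 (Pramel25, chr4:143789352-143795575) stood at 414 FPKM and Gm10436 (Pramel51, chr12:88175589-88182108) at 371 FPKM. They share 37.5% and 64.2% of their 50-base words with other genes, so these levels may include reads of relatives. The noncoding gene Gm3143 followed at 224 FPKM and the pseudogene Gm11545 at 218 FPKM. At the other end, Gm608 (Usf3, of the upstream stimulatory factor family) was lowest per length at 1.38 FPKM. All 99 members together took 1.26% ± 0.151 of gene counts in controls (SD, n = 9), 1.08% ± 0.206 in HU embryos (SD, n = 8) and 0.0104% ± 0.00418 over the 12 cells (SD over cells).

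**Figure D1:**
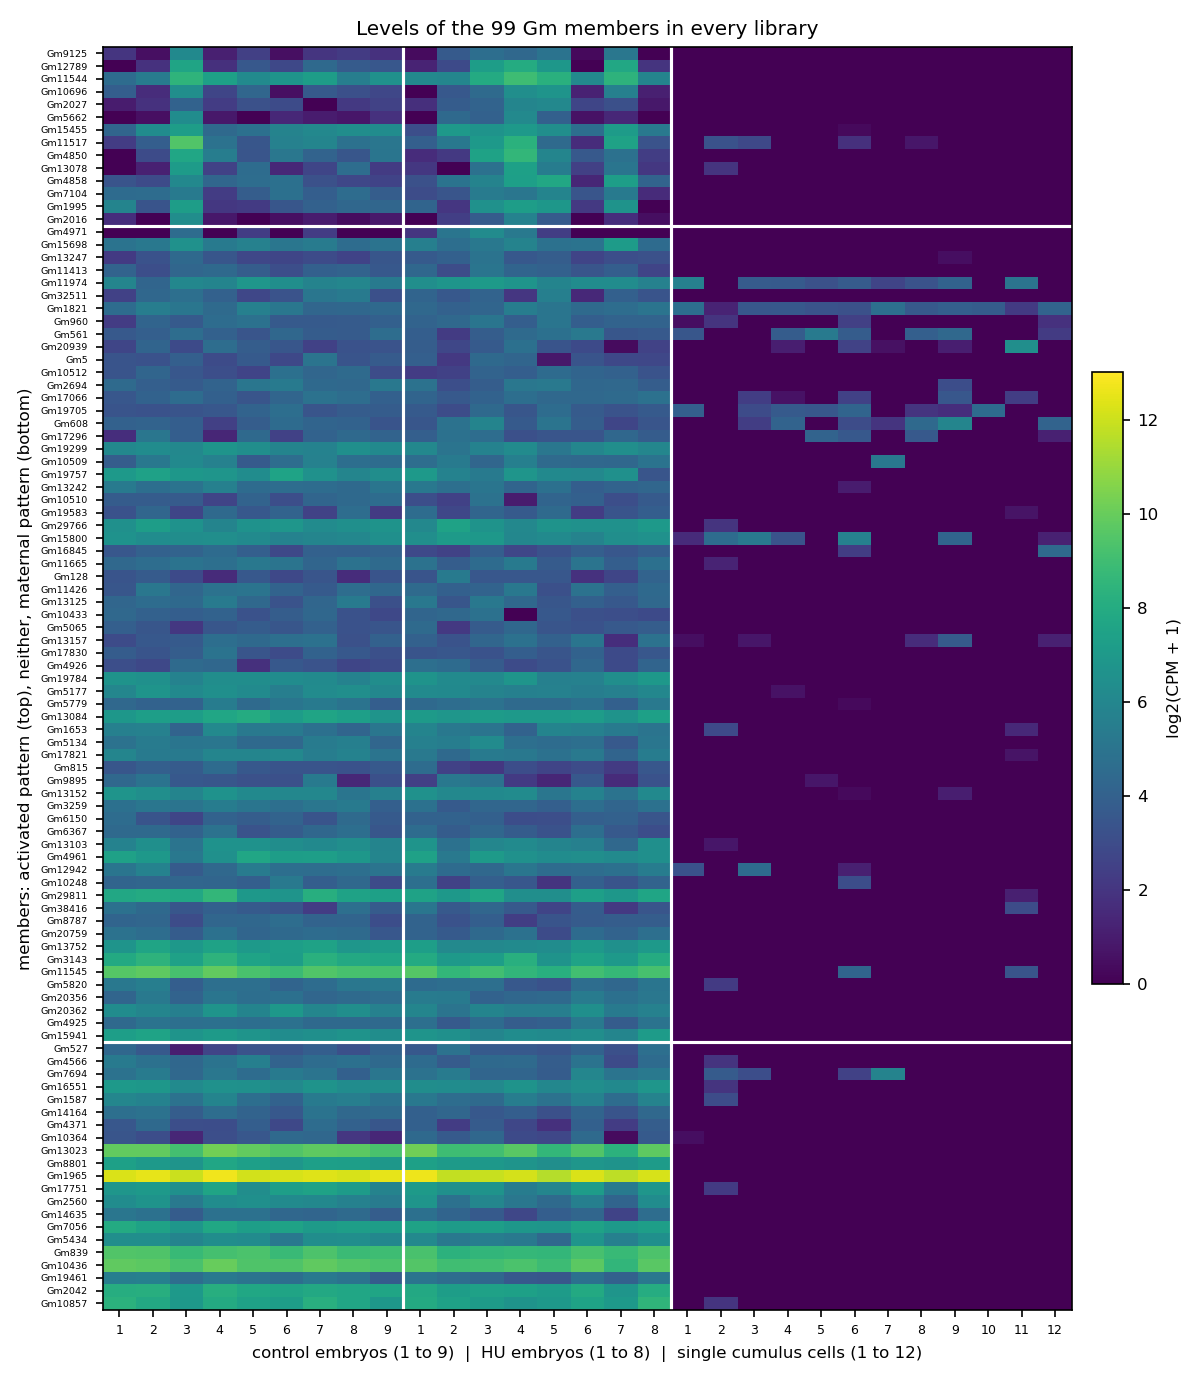
Level of each of the 99 members (rows) in each of the 29 libraries (columns: 9 control embryos, 8 HU embryos, 12 single cumulus cells), as log2(CPM + 1) by colour. Rows are split into the 14 activated-pattern members at the top, the 64 with neither pattern and the 21 maternal-pattern members at the bottom. Most rows are dark in the cells, Gm1965 is the brightest row in every embryo, and the top block is bright in control 3 and in HU embryos 3, 4, 5 and 7.

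Cumulus cells, the donor cell type, held few member transcripts. No animal or culture is named for the 12 cells, so their counts were summed as 1 sample and no test was made. Of the 99 members, 57 (57.6%) had no count in the 12 cells, against 8.82% of the 8871 other genes at 10 CPM or more in embryos. With 24058974 gene counts in the sum, a count of 0 allows a level of up to 0.125 CPM (3 counts), and such limits and intervals cover counting error only, since the reads carry no molecular identifiers. With 1 CPM added to both sides, 83 members (83.8%) were 8-fold or more below the control embryos, against 27.4% of the other genes. None was 8-fold or more above them, against 1% of the other genes. The median log2 ratio of cells to controls was -4.51 for members and -1.56 for the other genes. Clone-named genes (symbols ending in Rik) at 10 CPM or more lay between, with 18.4% lacking a count in the cells. Single cells hold less RNA than embryos and had 4054 to 8629 detected genes against 12887 to 15421 in embryos, and what part this has in these shares was not tested.

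The lowest ratios to controls were those of Gm1965, Gm13023, Gm10436, Gm839 and Gm3143, all without a count in the cells. Against the limit of 3 counts, Gm1965 was at least 41387-fold lower in cells than in controls and Gm13023 at least 6820-fold. Gm10436 was at least 6242-fold lower, Gm839 at least 4571-fold and Gm3143 at least 1932-fold. These are limits for CPM with Rn45s counted, which averaged 58.8% of counts in the cells and 20.9% in controls. Without Rn45s the folds would be smaller, and no ratio of cells to controls was recomputed without it. At the opposite end were the members with the highest ratios of cells to controls. Gm608 (Usf3) stood at 12.5 CPM in the cells (95% Poisson interval 11.1 to 14.0) against 14.3 ± 5.02 CPM in controls (SD, n = 9). Gm561 (Smim26, a small integral membrane protein) stood at 10.5 CPM (9.22 to 11.9) against 15.8 ± 5.26 CPM. Gm20939, noncoding by GENCODE M21 but protein-coding by RefSeq, had 7.02 CPM (6.01 to 8.17) against 11.03 ± 6.22 CPM. Of the 12 cells 5 held a count of it, and 1 cell was at 85.1 CPM. The noncoding Gm19705 had 7.52 CPM (6.47 to 8.70) against 12.7 ± 5.12 CPM. Gm1821, a processed copy of the ubiquitin gene Ubb, was the one member found in all 12 cells, at 12.6 CPM (11.3 to 14.1) against 29.5 ± 11.5 CPM. It is 97.7% identical to Ubb over 617 bases, so its reads may be split with Ubb.

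**Figure D2:**
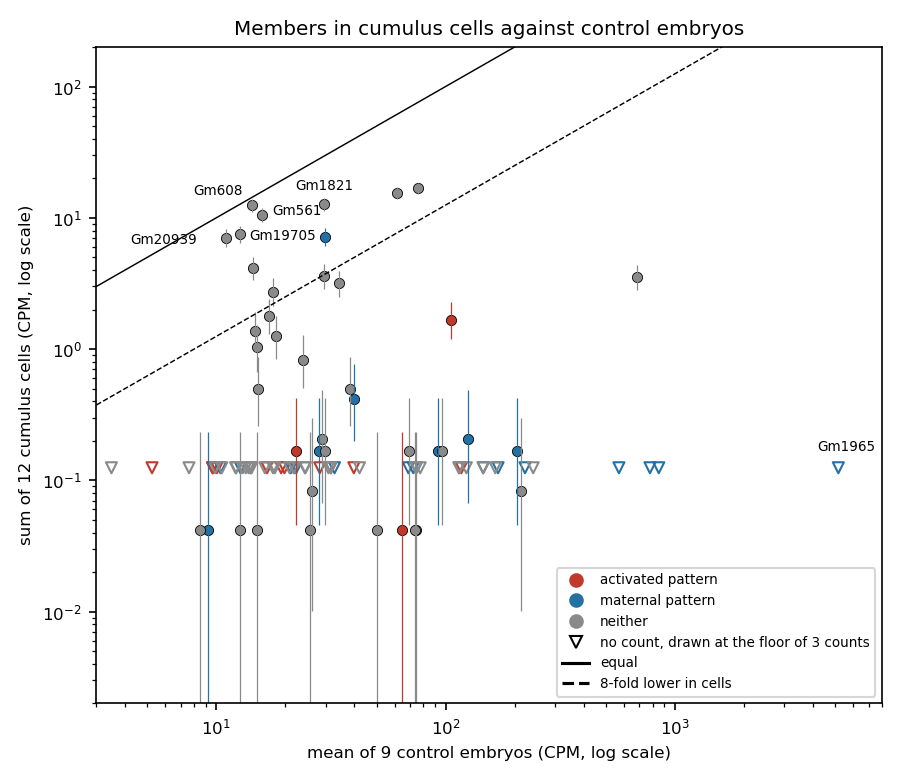
Level of each member in the sum of 12 cumulus cells (y axis, CPM, log scale, with 95% Poisson intervals) against its mean in 9 control embryos (x axis, CPM, log scale). Open triangles are the 57 members with no count in the cells, drawn at the limit of 3 counts (0.125 CPM). The solid line marks equal levels and the dashed line 8-fold lower in cells. Of the 99 members, 83 were 8-fold or more lower once 1 CPM was added, and Gm608, Gm561, Gm20939 and Gm19705 lie nearest the line of equal levels.

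The members were then split by how they varied across embryos with 2 genes of the 2-cell wave, Sp110, a nuclear body protein gene, and AF067063. Members with a Spearman rho of 0.5 or more with both genes over the 17 embryos are called activated here, and members with -0.5 or less with both maternal. These are names for a direction of correlation, and where the RNA was made was not tested. Sp110 stood at 92.6, 155 and 1252 CPM (lowest, median and highest) in controls and at 69.2, 439 and 1938 CPM in HU embryos. AF067063 stood at 43.9, 59.5 and 547 CPM in controls and at 20.9, 150.04 and 702 CPM in HU embryos. Sp110 spread over a wide range within both groups: 6 embryos (2 controls, 4 HU) had 468 CPM or more and the other 11 had 225 CPM or less. The 2 genes followed each other with a rho of 0.78 over 17 embryos, 0.40 within controls and 0.86 within HU embryos.

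The activated pattern was met by 14 members, the maternal one by 21 and neither by 64. These are 14.1% and 21.2% of members, against 10.5% and 8.82% of the other 8871 genes. All values that define the 2 patterns are used by the split, so they are given with no test. Among genes known from other work to be transcribed at the 2-cell stage, 12 of 19 tested met the activated pattern and 0 the maternal, with a median rho of 0.72 with Sp110. Among known oocyte genes, 5 of 34 met the maternal pattern and 0 the activated, and 28 of 34 had a rho below 0 with both genes. Control 3 carried much of the range in its group. It was also the embryo library with the fewest gene counts (1801261) and had the fewest detected genes among controls (13875), and HU embryo 4 had the fewest of all embryos (12887). What part these library traits have in the patterns was not tested. Within controls alone 1 of the 14 activated members kept a rho of 0.5 or more with both genes and 13 of 14 were above 0 with both, while within HU embryos 14 of 14 kept it. Of the 21 maternal members, 8 kept -0.5 or less with both within controls and 18 within HU embryos, and 21 of 21 were below 0 in each group. The maternal pattern also moved with scaling: with library sizes set by the ERCC spike-ins 4 members met it in place of 21, and 16 in place of 14 met the activated pattern.

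**Figure D3:**
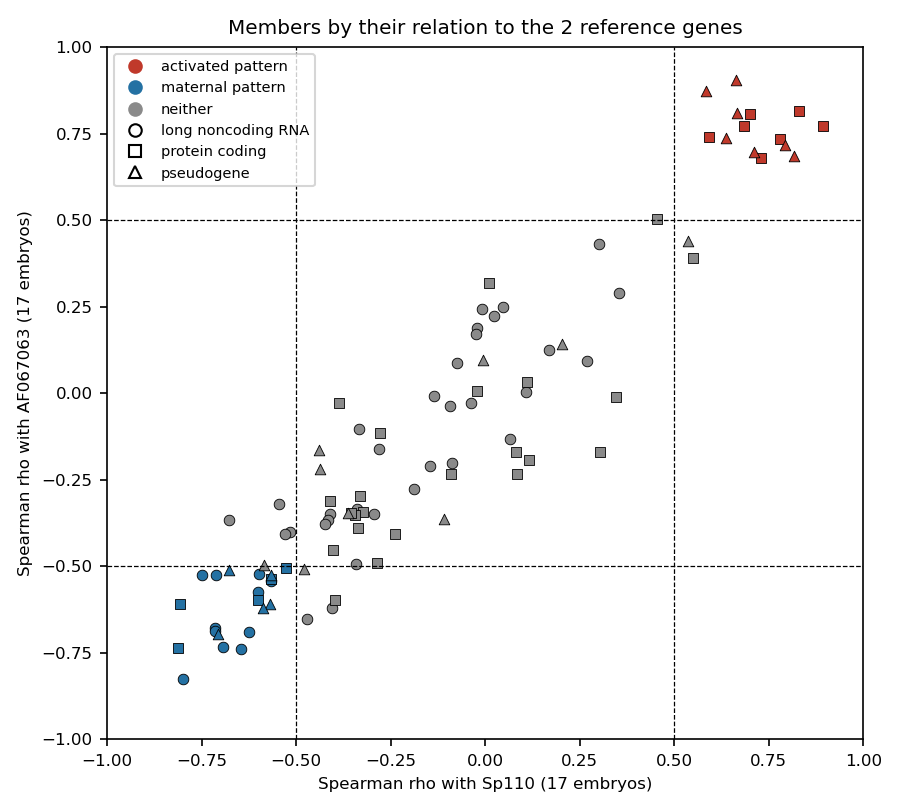
Spearman rho of each member with Sp110 (x axis) and with AF067063 (y axis) over 17 embryos. Dashed lines mark 0.5 and -0.5, colour the pattern and shape the gene class. The 14 activated members at the upper right are squares and triangles only, and 11 of the 21 maternal members at the lower left are circles (long noncoding RNA genes).

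Gene class was a property the split did not use, and its counts by pattern are given without a test. Of the 14 activated members 7 were protein-coding, 7 pseudogenes and 0 noncoding RNA genes, although 43 of all 99 members are noncoding. Of the 21 maternal members 11 were noncoding, 5 protein-coding and 5 pseudogenes. RefSeq classes differ for the activated pseudogenes Gm11544 and Gm15455, which it lists as protein-coding, giving 9 coding genes and 5 pseudogenes, and are the same for the maternal members. Single-exon genes, a mark of copies made through RNA, were 6 of the 14 activated members and 1 of the 17 maternal members with an M21 transcript. In shared sequence, 8 of the 14 activated members had 25% or more of their 50-base words in other genes, against 4 of the 17 maternal ones. Median exonic length was close, 1973 bases against 1999. In cumulus cells 11 of 14 activated and 14 of 21 maternal members had no count. Members of a chain share sequence and neighbourhood and 9 of the 14 activated members lie in chains, so these counts are not of independent genes.

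The highest mean coefficient with both reference genes was that of Gm9125, one of 3 activated Tdpoz and Spopfm genes on chromosome 3, which encode proteins with TRAF-type and POZ domains. Gm9125 (Tdpoz9, chr3:94047981-94054885, minus strand) had a rho of 0.89 with Sp110 and 0.77 with AF067063. It stood at 0.431, 2.97 and 71.6 CPM (lowest, median and highest) in controls and at 0, 16.0 and 35.1 CPM in HU embryos. Only control 3 among the controls exceeded 4.50 CPM. Gm10696 (Spopfm2, chr3:94174412-94178193, minus strand) stood at 0.431, 8.002 and 83.8 CPM in controls and at 0, 16.2 and 104 CPM in HU embryos. It followed Gm9125 with a rho of 0.93. Gm4858 (Tdpoz8, chr3:93068823-93075505, plus strand) stood at 5.18, 9.56 and 67.2 CPM in controls and at 1.60, 42.1 and 220 CPM in HU embryos. Gm9125 is 99.8% identical to Gm9117 over its whole transcript and shares 90.1% of its 50-base words with other genes, so its level may include reads of relatives. The same holds for Gm10696, which shares 44.4% of its words, while Gm4858 shares 5%.

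Gm12789, a coding gene at chr4:101986626-101990053, had a rho of 0.83 with Sp110 and 0.82 with AF067063. It stood at 0, 10.7 and 189 CPM in controls and at 0, 61.4 and 256 CPM in HU embryos, with 4 HU embryos at 116 CPM or more and the other 4 at 6.49 CPM or less. Its closest relative is B020004J07Rik, 94.5% identical over 470 bases.

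The starts of these 4 genes are shown because they share a run of bases with each other and with the start of Sp110, the gene against which they were scored. RefSeq (GRCm38.p6) gives promoter windows, 250 bases before to 50 after a start, for 68 of the 99 members, 6 of them activated and 13 maternal. The run, ACACACCTTTAATC, is the longest that the windows of these 4 members and of Sp110 have in common, and it was looked for after the windows had been read. The 250 bases before the start are printed 5′ to 3′ on the gene's strand for Gm4858 (chr3:93068573-93068822, plus), Gm9125 (chr3:94054886-94055135, minus), Gm10696 (chr3:94178194-94178443, minus) and the upstream one of 2 starts of Sp110 (chr1:85603892-85604141, minus). For Gm12789 (chr4:101986764-101986793, plus) 30 bases around the run are printed, since GENCODE places its start 214 bases further upstream than RefSeq. Capitals mark the run and the letters TAATCC, the core bound by Otx and Obox homeobox proteins, on either strand.
Gm4858: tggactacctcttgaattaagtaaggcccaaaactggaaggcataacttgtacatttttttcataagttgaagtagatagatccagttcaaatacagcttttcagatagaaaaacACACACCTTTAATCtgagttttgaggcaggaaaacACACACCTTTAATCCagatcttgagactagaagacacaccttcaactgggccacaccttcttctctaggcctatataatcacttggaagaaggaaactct
Gm9125: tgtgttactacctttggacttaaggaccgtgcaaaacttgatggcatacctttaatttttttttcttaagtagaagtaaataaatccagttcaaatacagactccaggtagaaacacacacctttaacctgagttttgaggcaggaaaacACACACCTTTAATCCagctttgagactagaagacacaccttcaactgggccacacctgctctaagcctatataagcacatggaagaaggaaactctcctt
Gm10696: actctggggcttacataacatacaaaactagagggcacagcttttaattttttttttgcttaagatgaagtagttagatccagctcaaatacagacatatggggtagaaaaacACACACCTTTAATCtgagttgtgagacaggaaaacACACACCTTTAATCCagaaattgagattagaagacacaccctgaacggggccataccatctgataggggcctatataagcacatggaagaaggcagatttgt
Gm12789: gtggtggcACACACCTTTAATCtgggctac
Sp110: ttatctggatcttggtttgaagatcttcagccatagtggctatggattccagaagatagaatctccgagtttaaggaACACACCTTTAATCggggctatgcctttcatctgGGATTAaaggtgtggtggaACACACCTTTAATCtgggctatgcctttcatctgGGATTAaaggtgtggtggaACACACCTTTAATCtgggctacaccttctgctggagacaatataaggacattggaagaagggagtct

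Both strands were searched. The run occurred in 41 of 32851 RefSeq windows (0.125%) and in 4 of the 68 members with a window. Those 4 are the members from which the run was taken, and they had been scored against Sp110, so their holding it was fixed by the choice and is no support. Gm4858 and Gm10696 hold it 2 times, Gm9125 and Gm12789 1 time each and the Sp110 window 3 times. Of the other 36 genes with the run 18 had a row in the table, and besides Sp110 4 of them reached 10 CPM. Of these 4, Tdpoz1 and Zfp352 met the activated pattern and Pemt and Zbed3 met neither. Over the whole 300-base window, Gm4858 and Gm9125 were 81.6% identical, Gm4858 and Gm10696 76.2% and Gm9125 and Gm10696 73.7%. The window of Gm12789 was 51.6% to 56.0% identical to those 3 and 62.4% to that of Sp110. Whether the run lies in a repeat was not tested.

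Of 5 other motifs searched in these windows, TAATCC occurred in 10 of 68 members and in 7.06% of all windows. The 10 included 3 of the 6 activated members with a window (Gm4858, Gm9125 and Gm10696, where it overlaps the end of the run, 91 to 93 bases before the start), 1 of 13 maternal (Gm839) and 6 of 49 others. CCAAT occurred in 30 of 68 members (37.4% of all windows) and TATAAA in 11 of 68 (13.6%), none of the 11 with either pattern. A variant, TATATAA, was not among these 5 motifs. It can be read in the printed windows of Gm4858, Gm9125 and Gm10696, so its presence there is no support. It was in 8 of 68 members (3.24% of all windows), among them Gm4858, Gm9125, Gm10696, the activated Gm13078 and the maternal Gm2042. The motif of the 2-cell factor Dux and TCAAGGTCA, bound by Nr5a2-type receptors, were in 0 of 68 (0.207% and 0.423% of all windows). Motifs can overlap, and a match in a window is a description of letters only.

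Pseudogenes made up 7 of the activated members. Gm11544 (chr11:94845358-94846092), related to the membrane protein gene Tmem92, was the most abundant activated member by CPM, at 23.4, 95.9 and 346 CPM in controls and 58.1, 156 and 499 CPM in HU embryos. Gm11517 (chr11:96795439-96795825) stood at 3.96, 28.7 and 719 CPM in controls and 2.13, 28.9 and 314 CPM in HU embryos. The value of 719 CPM was in control 3, and the next control had 58.5 CPM. Gm4850, on chromosome 1, stood at 0, 16.6 and 204 CPM in controls and 2.09, 19.7 and 385 CPM in HU embryos. Gm15455 is 97.9% identical to Rbm10, a splicing regulator, and ranged from 7.78 to 151 CPM over the embryos. Gm2027 is 92.6% identical to Naf1, an assembly factor of box H/ACA small nucleolar RNPs, and overlaps Pnpla8 on the same strand. Gm2027 did not follow Pnpla8 across embryos (rho 0.03), and Gm11517 had a rho of -0.38 with Cbx1, the gene it lies opposite to. Of their 50-base words, Gm2027 shares 50.1% and Gm15455 37.6% with other genes, so their levels may include reads of relatives.

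The neighbouring pseudogene Gm11545 (chr11:94756976-94757763, protein-coding by RefSeq), another Tmem92 relative 87.6 kb from Gm11544, behaved differently. It stood at 467, 612 and 949 CPM in controls and at 292, 471 and 747 CPM in HU embryos. Its rho was -0.48 with Sp110 and -0.51 with AF067063, just short of the maternal pattern, and -0.46 with Gm11544. No 50-base word of Gm11545 occurs in another gene.

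A cluster on chromosome 12, at chr12:87861366-88287069, held members of both patterns. Gm1995 and Gm7104 are single-exon pseudogenes related to the RNA exonuclease gene Rexo1, Gm2016 and Gm5662 are coding genes 99.3% identical to each other, and all 4 met the activated pattern. Gm2042 and Gm10436, relatives of the oocyte gene Oog1, lie between them and met the maternal pattern. Gm1995 stood at 3.24, 15.6 and 147.7 CPM in controls and at 0, 55.4 and 151 CPM in HU embryos. Gm5662 stood at 0, 0.810 and 79.4 CPM in controls and at 0, 8.18 and 68.1 CPM in HU embryos. Gm2042 stood at 124, 215 and 283 CPM in controls and at 109, 170 and 265 CPM in HU embryos. The lowest control for Gm2042 was control 3, in which Gm1995, Gm7104, Gm2016 and Gm5662 each had their highest control value.

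Within the cluster Gm2042 and Gm10436 followed each other (rho 0.94 over 17 embryos), as did Gm1995 and Gm7104 (0.80) and Gm2016 and Gm5662 (0.81). Gm2042 had a rho of -0.77 with Gm5662 and -0.61 with Gm1995. Distance did not order these relations: Gm1995 and Gm7104 are 421 kb apart, Gm10436 and Gm5662 88.5 kb apart with a rho of -0.68. Sequence sharing limits what these rows can tell. Gm7104 is 98.3% identical to Gm1995 over 1444 bases, and 44.1% and 44.3% of their 50-base words occur in other genes. For Gm2016 and Gm5662 these shares are 81.3% and 77.9%. What part shared reads have in the relations within the cluster was not tested. Gm2042 is 99.6% and Gm10436 98.8% identical to Oog1, whose own row was at 0 counts in all 17 embryos. Gm2042 shares 90.3% and Gm10436 64.2% of 50-base words with other genes, so reads of the shared stretches cannot be assigned to 1 gene. Their relatives C87977 and C87499 averaged 321 and 129 CPM over the embryos and had 0 counts in the cumulus cells.

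**Figure D4:**
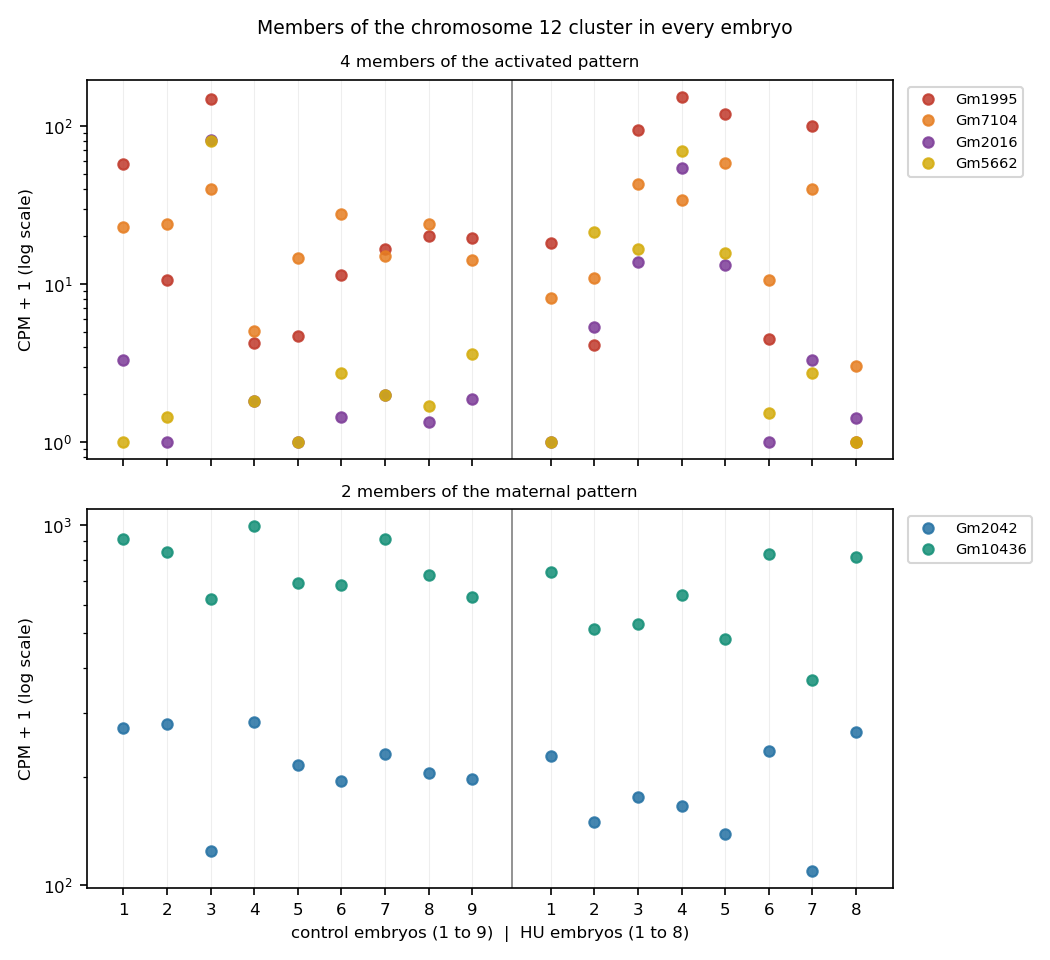
Levels of the 6 chromosome 12 members in each of the 9 control and 8 HU embryos, as CPM + 1 on a log scale, with 1 point per embryo and gene. Upper panel, the 4 activated members: Gm1995 reaches 147.7 CPM in control 3 and 151 CPM in HU embryo 4. Lower panel, the 2 maternal members: Gm2042 is lowest in control 3 and HU embryo 7, at 124 and 109 CPM.

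The Pramel chain on chromosome 4 was mixed as well. Gm13078 (Pramel24) met the activated pattern, at 0, 4.86 and 137 CPM in controls and 0, 16.1 and 165 CPM in HU embryos. Gm13023 (Pramel25), 60.2 kb away, met the maternal pattern, at 562, 870 and 1213 CPM in controls and 328, 627 and 1143 CPM in HU embryos. Gm13084, Gm13103 and Gm13125 met neither. These 3 followed Gm13023 with a rho of 0.60 to 0.81 and Gm13078 with a rho of -0.14 to 0.15. Shared 50-base words were 37.5% for Gm13023, 45.3% for Gm13084, 49.2% for Gm13103 and 14.8% for Gm13078. Gm13023 is 95.9% identical to the chromosome 12 member Gm2042 over its whole transcript. What part reads of shared stretches have in these relations was not tested.

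Among the other maternal members, Gm10857 had the lowest mean coefficient, with a rho of -0.80 with Sp110 and -0.83 with AF067063. This 2-exon noncoding gene at chr2:6132869-6140568 stood at 118, 203 and 318 CPM in controls and 101, 157 and 360 CPM in HU embryos. Part of it overlaps Gm13384 on the opposite strand. Gm19461, antisense to Plekha6, stood at 12.96, 31.1 and 49.5 CPM in controls and 10.2, 21.7 and 34.8 CPM in HU embryos, and followed Plekha6 with a rho of 0.59. Gm14635, on the X chromosome, stood at 12.8, 21.6 and 33.0 CPM in controls and 5.18, 15.6 and 27.2 CPM in HU embryos. Gm5434, a copy 93.1% identical to the NEDD8-conjugating enzyme gene Ube2f, stood at 35.3, 81.0 and 85.04 CPM in controls and 19.9, 46.9 and 108 CPM in HU embryos. Gm7056 stood at 113, 154 and 243 CPM in controls and 108, 147.7 and 182 CPM in HU embryos. The median coefficient of variation was 30.9% in controls and 41.7% in HU embryos for the 21 maternal members, and 157% and 116% for the 14 activated ones. The control value of the activated members includes control 3. In that embryo 9 of them stood apart from the other controls, and Gm1995, Gm7104, Gm4850 and Gm13078 were not examined for this.

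Genes other than members were searched for the closest profile over the 17 embryos. For the activated Gm9125 it was Nol7, a nucleolar protein gene (rho 0.92), for Gm12789 Ficd, an endoplasmic reticulum AMP transferase gene, tied with Vasn (0.91 each), and for Gm11544 Eif3g, a subunit of a translation initiation factor (0.89). For the maternal Gm10857 it was the kinase gene Pskh1, tied with Fa2h (0.92 each), and for Gm2042 Dbf4, the partner of the Cdc7 kinase (0.93).

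HU did not change any member past the test's threshold. Of the 99 members 96 passed the filter on low counts, and Gm5662, Gm2016 and Gm4971 did not. In edgeR's quasi-likelihood test with adjustment over 11476 genes, no adjusted p fell under 0.05 among the members, with 0 of 96 higher and 0 lower, nor among all genes (0% in either direction). At an unadjusted p under 0.05, 2 members (2.08%) were higher, against 3.81% of all genes tested, and 5 (5.21%) were lower, against 2.04%. DESeq2 called 0 members, with 2 genes higher and 1 lower in all, and limma-voom called 0. No member had all HU embryos above or all below every control, against 0.00871% of all genes for each direction.

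Gm4858 (Tdpoz8), whose promoter is printed above, had the smallest p of the members. Of 8 HU embryos 3 exceeded the highest control and 6 the control median, and 1 was below every control. The log2 fold change was 2.14 ± 0.70 (SE), with an unadjusted edgeR p of 0.00546 and an adjusted p of 0.829. Gm2027 stood at 0, 4.05 and 16.1 CPM in controls and at 0.819, 10.5 and 66.3 CPM in HU embryos. Its log2 fold change was 2.05 ± 0.75, with an edgeR adjusted p of 0.829, and 6 of the 8 exceeded the middle control value. Gm11974 (Snhg15) stood at 17.805, 59.3 and 113 CPM in controls and at 51.99, 81.8 and 132 CPM in HU embryos, with 6 of 8 over the middle control. Next in p among members with a higher mean in HU were Gm11974 (log2 fold change 0.55 ± 0.27), Gm12789 (1.83 ± 1.05) and Gm11544 (0.85 ± 0.51), with edgeR adjusted p of 0.835 or less. Over the alternative fits and with each embryo left out, the log2 fold change of Gm12789 ranged from 1.18 (limma-voom) to 3.58 (without control 3) and that of Gm4858 from 1.45 to 2.67. Of the 5 members with the smallest p in this direction, 4 are activated and Gm11974 has neither pattern.

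In the other direction Gm17821, a pseudogene copy of Dcaf5, stood at 31.1, 53.9 and 65.0 CPM in controls and at 17.6, 36.6 and 42.6 CPM in HU embryos. Its log2 fold change was -0.61 ± 0.22, with 3 of 8 HU embryos below every control and none of the 8 over the middle control. The noncoding Gm13752 stood at 104, 138 and 194 CPM in controls and at 66.7, 84.3 and 153 CPM in HU embryos. Its log2 fold change was -0.53 ± 0.21, with 5 of 8 HU embryos below every control. Gm11545, described above, had -0.46 ± 0.18, with 4 of 8 below every control. The noncoding Gm29811 stood at 106, 219.8 and 391.9 CPM in controls and 84.99, 140.2 and 198 CPM in HU embryos, and Gm3259 (Pramel47) at 14.4, 31.9 and 43.3 CPM and 12.1, 18.5 and 28.1 CPM. Their log2 fold changes were -0.55 ± 0.24 and -0.55 ± 0.25, each with no HU embryo over the middle control value. Gm29811 shares 41.8% and Gm3259 81.9% of 50-base words with other genes, so their levels may include reads of relatives. All 5 had an edgeR adjusted p of 0.829, and they were chosen by p in these embryos, so the counts of embryos are no separate support.

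Most members had a fitted change below 0: 60 of 96 (62.5%), against 46.4% of all genes tested, with a median log2 fold change of -0.14 against 0.04. With ERCC scaling, which moved the median of all genes from 0.04 to 0.19, 51 members (53.1%) were below 0 and 45 above, against 30.6% of all genes below 0. By pattern, 11 of the 12 activated members tested were above 0 (53.6% of all genes tested were), with a median of 0.91, and 18 of the 21 maternal members were below 0 (median -0.26). The patterns were defined in the same embryos, and Sp110 was at 468 CPM or more in 4 of 8 HU embryos and 2 of 9 controls, so these directions are in part fixed by the choice of members. By class, 34 of 43 noncoding members were below 0, against 13 of 33 coding members and 13 of 20 pseudogenes. One library weighed on the activated members: without control 3 their median was 2.07, and 9 of 95 members were higher at an unadjusted p under 0.05 in place of 2 of 96. Over all genes the same counts were 642 of 11367 in place of 437 of 11476.

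**Figure D5:**
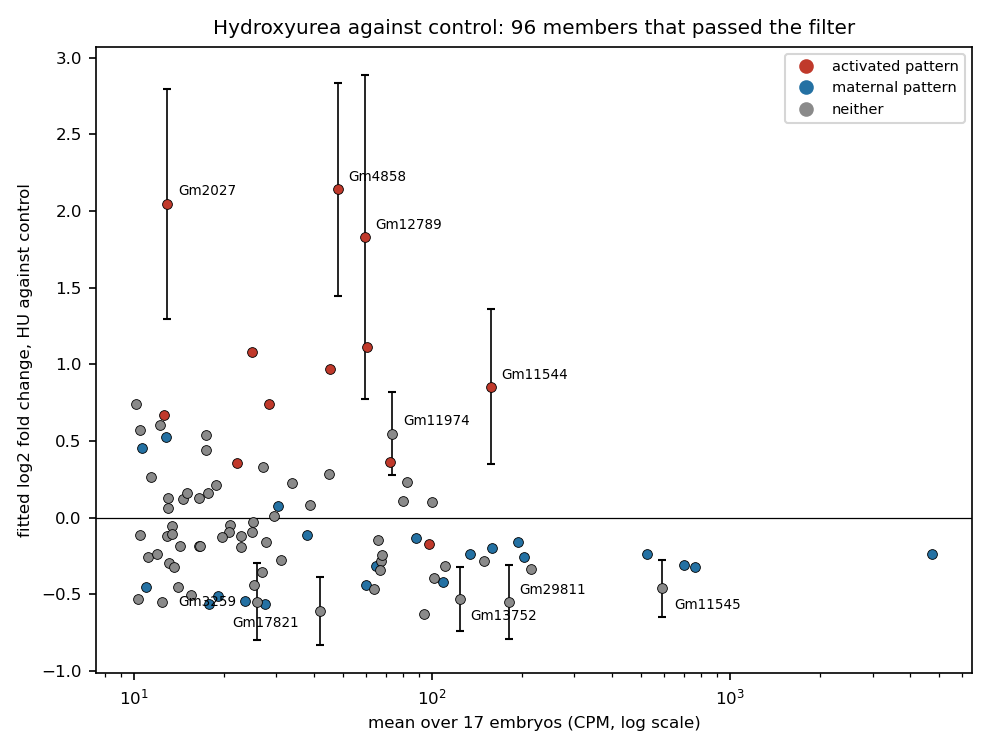
Fitted log2 fold change of HU against control embryos (y axis) against the mean level over 17 embryos (x axis, CPM, log scale) for the 96 members that passed the filter, coloured by pattern. Bars are ± 1 SE and are drawn for the 5 members with the smallest p in each direction. Activated members range from -0.17 to 2.14 and maternal members from -0.57 to 0.53, and no member passed an adjusted p of 0.05.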

How the data were processed

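The authors deposited raw read counts per gene for 29 libraries, and FPKM values made from them. Per the labels, RNA of single embryos and cells was amplified by Smart-seq2. The submitters' processing notes name FastQC, STAR 2.7.3a, R 4.0.2 and the mm10 build. Which program counted reads, on which annotation and with which strand option, is not given in the sources used here. For all 99 members the deposited FPKM equalled count over library sum over one length (tolerance 0.001).

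HU and control embryos were compared with edgeR 4.0.16 (R 4.3.3; TMM, filterByExpr, quasi-likelihood test, Benjamini-Hochberg adjustment over 11476 genes), after the script was tested on simulated data. DESeq2 1.42.0, limma 3.58.1, other scalings, other filters, a replicate block and each embryo left out in turn were alternatives. Positions came from GENCODE M21 and RefSeq GRCm38.p6, and relatives from blastn 2.17.0. The members and gene lists were chosen with earlier results of these data known.

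Members with values are the 10 most abundant, the 8 highest and 8 lowest by mean correlation, the 5 with the smallest p per direction, the 5 highest and 5 lowest in cells against controls, and the 3 on either side of the limit. Family members and the sequence run were added after their values were seen. Deviations of same-numbered embryos from their group means correlated from -0.103 to 0.167. One result of the profile search is not reported here.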

Additional observations from a re-analysis of the deposited data

Results flagged for a closer look

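In 72 groups of values, an embryo was held to stand apart if its gap to its neighbour passed Dixon's 95% limit. Chance passes that limit in about 1 of 20 groups of normally distributed values. CPM was used here without a log, and activated members have a long upper tail, so that rate is no measure for these groups. Of the 72 groups 16 held such an embryo, and in 11 of these it was control 3. Many of the groups are of members named for their correlation with Sp110 and AF067063, which themselves stood apart in control 3, and some share sequence, so this number and its weight on control 3 are in part fixed by the choice of members. Control 3 had the fewest gene counts of the embryos (1801261) and the fewest detected genes of the controls (13875). In control 3 the highest levels were 71.6 CPM for Gm9125 (next control 4.50), 189 for Gm12789 (20.6), 346 for Gm11544 (168), 83.8 for Gm10696 (18.8), 79.4 for Gm5662 (2.59), 151 for Gm15455 (82.8), 719 for Gm11517 (58.5), 67.2 for Gm4858 (26.7) and 81.1 for Gm2016 (2.31). The reference genes stood apart there too, Sp110 at 1252 CPM (468) and AF067063 at 547 CPM (133).

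HU embryo 4 stood apart for Gm5662 at 68.1 CPM (next 20.4) and for Gm2016 at 53.5 CPM (12.9), 2 rows that share most of their sequence. It had the fewest detected genes of all embryos (12887). What part these library traits have was not tested. HU embryo 2 stood apart for Gm128 at 38.3 CPM (16.8). For Gm815 control 4 was at 22.7 CPM (14.3) and HU embryo 1 at 23.3 CPM (10.6).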

How the results depend on the processing

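Of the recomputed values 21 moved, 514 did not and none changed direction. A count was held to have moved beyond 1.5 times, a median beyond 1 SD between embryos, and a named member's change where it crossed an adjusted p of 0.05. These are wide limits, and larger shifts within them are given here as ranges. Members higher in HU at an unadjusted p under 0.05 numbered 2, but 1 with limma-voom (Gm11974) and 2 to 9 with 1 embryo left out (9 without control 3, with 642 of 11367 genes in all). Members lower numbered 5, but 0 with ERCC scaling (27 of 11476 genes in all), 0 with all 3 groups in the fit (18 of 11924), and 3 to 14 with 1 embryo left out (14 without HU embryo 1, with 424 of 11632 genes). In the reported fit 234 of 11476 genes were lower. The median log2 fold change then ranged from -0.22 to -0.08 for members, 0.54 to 2.07 for activated and -0.37 to -0.19 for maternal members. A limit of 20 CPM left 60 members and one of 5 CPM gave 140. The 21 maternal members became 4 with ERCC scaling, 9 at a threshold of 0.6, 9 in controls alone and 12 without the 2 embryos farthest in Sp110 (chosen after seeing the data), and the activated members 2 in controls alone. With 1 embryo left out, members numbered 95 to 102, activated 11 to 16 and maternal 15 to 24. With 0.1 CPM added, the median log2 ratio of cells to controls was -7.39. Leaving out 1 cell gave 57 to 67 members with no count in cells and a median of -4.52 to -4.51. Adjusted p of the 10 named HU members ranged from 0.444 to 1.00. The causes were not tested.

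With the replicate number as a block (embryos 1 to 8, control 9 dropped), 1 member was higher (Gm11544) and 8 lower at an unadjusted p under 0.05, and no member was called. Deviations of the 8 same-numbered pairs correlated from -0.103 to 0.167. Pairs with different numbers were not computed, so whether same-numbered embryos shared a day or a female cannot be told from this.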
